A study of Mus musculus with 23 samples.

Results

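This report describes 10 genes of iron handling in mouse liver and colon tumor: the hepcidin genes *Hamp* and *Hamp2*, the hepcidin inducer *Bmp6*, the iron exporter *Slc40a1*, the transferrin receptors *Tfrc* and *Tfr2*, transferrin (*Trf*), the ferritin subunits *Fth1* and *Ftl1*, and the haem oxygenase *Hmox1*. They were chosen by name, and all 10 were found among the 48897 gene rows of the expression table. The libraries came from male BALB/c mice, 4 to 6 weeks old at the start, whose cecal serosa was injected either with cells of CT26, a mouse colon carcinoma line, or, in the sham operation, with serum-free medium alone. Tissue was taken 3 weeks later: the livers of the 5 shams are called control liver, and 9 mice with tumors each gave 1 primary tumor and 1 liver, called pre-metastatic liver. All tumors therefore derive from a single cell line, and each library is a whole tissue, in which fewer cells of a type and less RNA per cell cannot be told apart.

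Hepcidin is the peptide hormone through which the liver sets iron supply to the body. It is made by hepatocytes, and it binds ferroportin, the product of *Slc40a1*, the exporter through which macrophages, enterocytes and hepatocytes release iron, and causes its degradation. Transcription of *Hamp* is known to be driven by 2 inputs, BMP6 and BMP2 from the sinusoidal endothelium, acting through SMAD proteins, and interleukin 6, acting through STAT3 during inflammation. *Hamp2* is a second mouse hepcidin gene, next to *Hamp*, whose product is not known to lower plasma iron. Iron itself acts after transcription: when iron is scarce, iron regulatory proteins bind stem-loops called iron-responsive elements, which blocks translation of the ferritin and ferroportin mRNAs and stabilizes the *Tfrc* mRNA.

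*Hamp* and *Hamp2* lie in tandem on the minus strand of chromosome 7, at 30942368 to 30944017 and at 30922372 to 30924181 in the deposited table (build mm10). The bases upstream of both starts are shown because both inputs named above are known to reach *Hamp* through this stretch. The 250 bases before the RefSeq start of each gene (GRCm38.p6, minus strand, 5′ to 3′) read as follows, with capitals marking GGCGCC, the core of a BMP response element, and TTCTTGGAA, a STAT-type site.
Hamp (chr7:30944030-30944279): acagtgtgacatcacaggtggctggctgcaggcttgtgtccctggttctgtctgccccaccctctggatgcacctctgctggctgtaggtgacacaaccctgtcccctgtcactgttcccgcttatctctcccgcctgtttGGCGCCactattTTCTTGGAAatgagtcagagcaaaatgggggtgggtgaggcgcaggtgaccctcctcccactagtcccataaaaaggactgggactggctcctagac
Hamp2 (chr7:30924182-30924431): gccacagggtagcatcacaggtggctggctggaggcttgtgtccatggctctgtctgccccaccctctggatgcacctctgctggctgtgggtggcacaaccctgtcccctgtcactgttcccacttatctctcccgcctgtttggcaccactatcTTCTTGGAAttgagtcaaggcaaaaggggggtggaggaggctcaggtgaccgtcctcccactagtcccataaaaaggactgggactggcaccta
The windows were identical at 227 of 253 aligned positions (89.7%), with 40 bases in the longest identical run. GGCGCC began 109 bases before the *Hamp* start and was not found in the *Hamp2* window, which holds GGCACC at the aligned place. TTCTTGGAA began 97 bases before the *Hamp* start and 94 bases before the *Hamp2* start. Searched on both strands in the 250 bases before 32851 RefSeq starts, GGCGCC was present in 9.59% of windows and TTCTTGGAA in 0.365%, and the looser TTCNNNGAA, which contains the latter, in 7.02%. A match is a string of letters and not a shown binding site.

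The iron-responsive elements are shown because they mark which of the 10 mRNAs iron can act on directly. A script searched the GENCODE vM21 transcript of each gene (build GRCm38) for the loop CAGTGN, with N other than G, closed by 5 base pairs (G-T pairs allowed) and preceded by an unpaired C. The elements are given 5′ to 3′ with the loop in capitals.
Fth1, 5′ UTR (chr19:9982733-9982760, plus strand): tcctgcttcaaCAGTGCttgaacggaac
Ftl1, 5′ UTR (chr7:45459779-45459806, minus strand): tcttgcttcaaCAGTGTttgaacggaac
Slc40a1, 5′ UTR (chr1:45925465-45925492, minus strand): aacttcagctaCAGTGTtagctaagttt
Tfrc, 3′ UTR, first of 4 (chr16:32631220-32631247, plus strand): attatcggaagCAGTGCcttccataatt
*Fth1*, *Ftl1* and *Slc40a1* held 1 element each, before the coding sequence, and *Tfrc* held 4, all after it. None was found by this search in *Hamp*, *Hamp2*, *Tfr2*, *Trf*, *Bmp6* or *Hmox1*. RNA-seq reads mRNA level only, so the translation of ferritin and ferroportin was not measured.

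Total counts were 51064615 to 60393702 in control liver, 44587556 to 79773163 in pre-metastatic liver and 47005276 to 70884436 in primary tumor. Levels below are RPKM, the count scaled to gene length and to the total of the library, as deposited. Differences are log2 fold changes fitted to the counts by edgeR with TMM scaling of the libraries, given with a standard error (SE), and a gene is called changed at a Benjamini-Hochberg adjusted *p* under 0.05 over all genes tested. The livers matched their label, with *Alb*, the hepatocyte gene for albumin, at 15822 to 46034 RPKM. Of the markers of colon epithelium, the tumors expressed *Krt20* at 27.8 to 113 RPKM, *Krt18* at 2.74 to 11.3, *Krt8* at 0.144 to 5.04 and *Cdh1* at 0.255 to 1.02 RPKM, while *Cdx2*, *Muc2*, *Vil1* and *Epcam* stayed between 0.00205 and 1.88 RPKM. *Alb* was 86.4 and 173 RPKM in the tumors of M10 and M12 and 2.97 to 15 RPKM in the other 7. By clock genes, 4 control livers and 5 pre-metastatic livers (M4 to M8) formed an early phase, and C7 with the livers of M1, M2, M10 and M12 a late phase, so results were also fitted within the early phase. The split was set at the largest gap in an index of the clock genes. C7 lay between the others, at 0.981, with early livers at -2.35 to -0.102 and the other late livers at 2.05 to 2.92.

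Livers of tumor-bearing mice held much less hepcidin mRNA than livers of sham-operated mice, more transferrin mRNA, and less mRNA of both ferritin subunits and of *Tfrc*. Of the 10 genes, 2 were called higher (*Trf*, *Tfr2*) and 5 lower (*Hamp*, *Hamp2*, *Tfrc*, *Fth1*, *Ftl1*) in pre-metastatic liver, and *Slc40a1*, *Bmp6* and *Hmox1* were not called. Among all 16987 genes tested in the livers, 17.7% were called higher and 13.3% lower. Overlap of groups is given below for named genes only, in RPKM and not with TMM scaling. The share of all genes without overlap was not counted. The median log2 fold change of the 10 genes was -0.50, against 0.01 over all genes tested.

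*Hamp* was among the most abundant transcripts of control liver, the 20th of the table by mean RPKM. Its level was 2756 RPKM in C1, 2010 in C4, 5461 in C5, 4133 in C6 and 2108 in C7. In pre-metastatic liver, it had a lowest value of 29.3 RPKM (M7), a median of 337 and a highest of 1135 (M4). No pre-metastatic liver reached the lowest control liver, and the 9 of them were spread 38.8-fold, the controls 2.72-fold. The fitted difference was a log2 fold change of -2.74 (SE 0.68, adjusted *p* = 0.0069), a 6.67-fold lower level. The difference was -2.76 among early-phase livers alone (adjusted *p* = 0.0363).

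*Hamp2* lay far below *Hamp* in every liver, at 0.994% to 9.41% of the counts of the pair in pre-metastatic liver and 1.23% to 4.39% in control liver. The transcripts of the pair are 92.4% identical, with 87 bases in the longest identical run, so reads could have been assigned between them, and the *Hamp2* values carry that uncertainty. In control liver *Hamp2* was at 30.9 RPKM (C1), 33.5 (C4), 75.9 (C5), 84.6 (C6) and 87.6 (C7). The pre-metastatic livers had a lowest value of 1.15 RPKM (M7), a median of 7.39 and a highest of 54.5 (M2). Of these, 8 lay below every control liver, and only M2 was inside the control range. The log2 fold change was -2.21 (SE 0.64, adjusted *p* = 0.0167), and -2.87 without the liver of M2 (adjusted *p* = 0.0011), -3.10 among early-phase livers (adjusted *p* = 0.0053) and -2.82 with clock phase as a term (adjusted *p* = 0.00348).

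**Figure D1:**
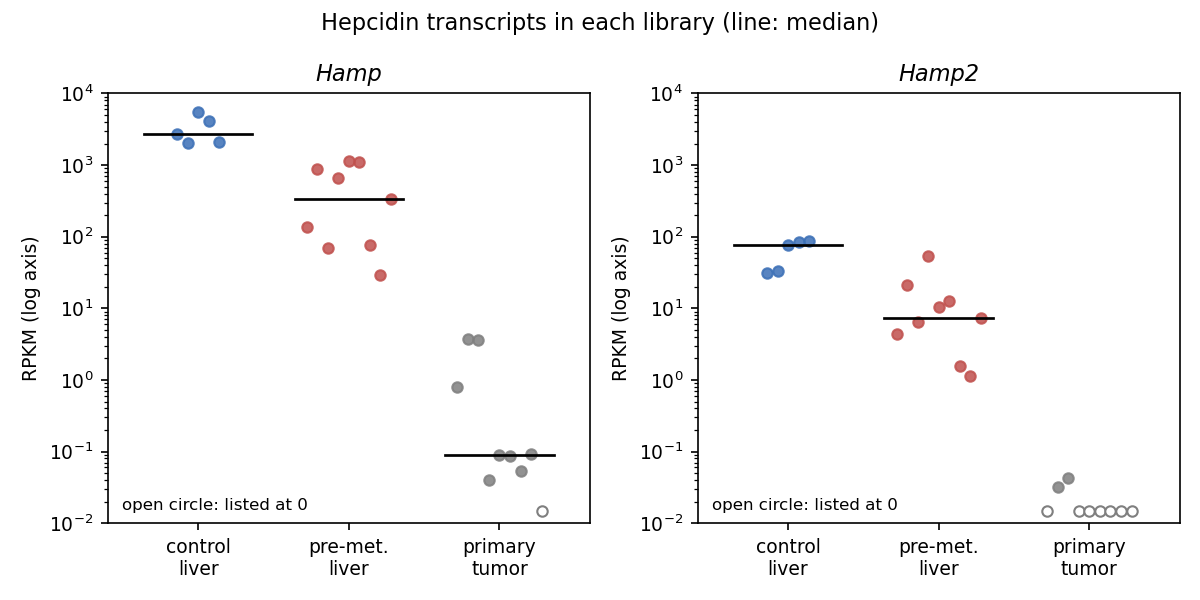
RPKM on a log axis of *Hamp* (left) and *Hamp2* (right) in 5 control livers, 9 pre-metastatic livers and 9 primary tumors, with 1 point per library and a line at the median (not drawn for *Hamp2* in tumor, where it is 0). Every pre-metastatic liver is below every control liver for *Hamp*, 8 of 9 are for *Hamp2*, and all tumors are below all livers.

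*Bmp6*, the BMP ligand best known for inducing *Hamp*, is an endothelial transcript and was rare in whole liver. Its control values were 0.945 RPKM (C1), 1.91 (C4), 1.02 (C5), 1.27 (C6) and 1.03 (C7). Pre-metastatic livers had a lowest value of 0.335 RPKM (M7), a median of 0.681 and a highest of 1.35 (M2), so the groups overlapped, although 8 of the 9 were below the lowest control. The log2 fold change of -0.74 (SE 0.28) was not called (adjusted *p* = 0.0555). It was called among early-phase livers (-1.05, adjusted *p* = 0.0395), with clock phase as a term (-0.84, adjusted *p* = 0.0451), by DESeq2 (-0.74, adjusted *p* = 0.0395) and without the liver of M2 (-0.89, adjusted *p* = 0.017).

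*Tfr2*, the second transferrin receptor, is a hepatocyte protein that senses loaded transferrin. Control livers had 164 RPKM (C1), 140 (C4), 132 (C5), 144 (C6) and 138 (C7), and pre-metastatic livers 144 to 178, with a median of 167. C1, the highest control liver, and M6, the lowest pre-metastatic liver, made the groups overlap. A log2 fold change of 0.29 (SE 0.09, adjusted *p* = 0.0248) was called, but not among early-phase livers (0.23, adjusted *p* = 0.192), with total counts for TMM scaling (0.22, adjusted *p* = 0.0679), or without C4, C5 or C7 (adjusted *p* of 0.0595 to 0.0659).

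The 2 inputs to hepcidin transcription were described by the other genes of each pathway. Of 14 further ligand, receptor and SMAD genes tested, 3 were higher and 0 lower, the largest rise being that of *Fgl1*, a hepatocyte secreted protein known to bind BMP6 (1.02, SE 0.34, adjusted *p* = 0.0308). *Tmprss6*, the protease that cleaves the BMP co-receptor hemojuvelin, was called higher by 0.26 (SE 0.08, adjusted *p* = 0.0293), but not with total counts for TMM scaling (0.18, adjusted *p* = 0.218), under which 1 of the 14 genes was higher. *Bmp2* (-0.11, adjusted *p* = 0.854), the hemojuvelin gene *Hjv* (*Hfe2* in the table, -0.34, adjusted *p* = 0.162) and *Hfe* (0.09, adjusted *p* = 0.539) were not called. The list holds ligands and receptors together with *Fgl1* and *Tmprss6*, so its count gives no direction for the pathway.

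BMP-SMAD target genes had 4 of 7 called lower and 0 higher, with a median log2 fold change of -0.69. *Id1*, a standard readout of BMP signalling in liver, fell from 9.28 to 22.3 RPKM in control liver to 1.61 to 4.89 RPKM in pre-metastatic liver, without overlap (-2.14, SE 0.23, adjusted *p* = 3.26e-05). *Smad7*, the inhibitory SMAD, was called lower by a log2 fold change of -0.69 (SE 0.21, adjusted *p* = 0.0233).

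Genes of the interleukin 6 and STAT3 arm moved the other way, with 8 of 10 called higher and 0 lower (6 and 0 with total counts), and a median log2 fold change of 1.0. *Saa2*, an acute phase protein, was at 14 to 473 RPKM in control liver and 631 to 10433 RPKM in pre-metastatic liver (5.28, SE 1.06, adjusted *p* = 0.0018). *Stat3* (0.73, SE 0.14, adjusted *p* = 0.0017), its feedback inhibitor *Socs3* (1.26, SE 0.21, adjusted *p* = 0.000492) and the iron-siderophore binding protein *Lcn2* (2.32, SE 0.60, adjusted *p* = 0.00846) also rose. *Il6* itself had at most 10 counts in any liver and was not tested there, while the primary tumors had 26 to 156 counts of it (0.407 to 2.61 RPKM). Erythroferrone (*Fam132b* in the table), a hormone of red cell precursors that lowers hepcidin, had at most 9 counts in any liver and was not tested either.

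**Figure D2:**
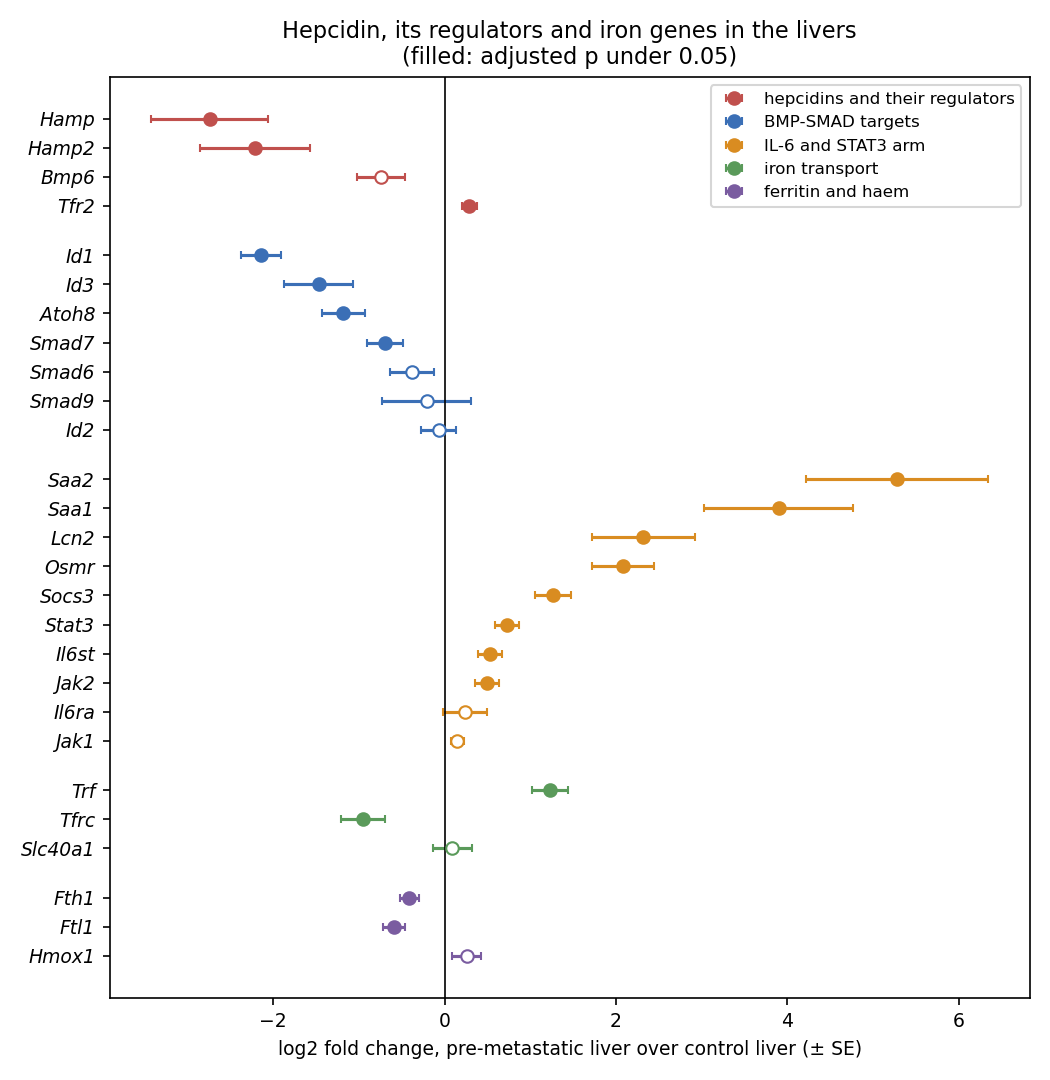
Log2 fold changes of pre-metastatic over control liver with their SE (horizontal bars) for the 10 iron genes and for the tested genes of the BMP-SMAD target and interleukin 6 lists, colored by group and filled where the adjusted *p* was under 0.05. Both hepcidins and all 7 BMP-SMAD targets lie to the left (4 of the 7 called), and all 10 tested genes of the interleukin 6 arm to the right (8 called).

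*Trf*, the plasma carrier of iron, made by hepatocytes, rose without overlap. Control livers were close together, at 4775 RPKM (C1), 5031 (C4), 5343 (C5), 4999 (C6) and 5126 (C7). Pre-metastatic livers ran from 7925 RPKM (M2) through a median of 11761 to 13779 (M6), all above every control liver. By mean RPKM *Trf* ranked 7th in control liver and 2nd in pre-metastatic liver among all genes. The log2 fold change was 1.23 (SE 0.21, adjusted *p* = 0.000521), a 2.35-fold higher level. Per 1000 RPKM of *Alb*, *Trf* was 169 to 224 in control liver and 283 to 663 in pre-metastatic liver, so the groups stayed apart relative to another hepatocyte transcript.

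*Tfrc*, the receptor through which most cells take up transferrin iron, was lower. Control livers had 7.17 RPKM (C1), 9.59 (C4), 6.68 (C5), 18.6 (C6) and 15.9 (C7). In pre-metastatic liver the lowest value was 3.16 RPKM (M2), the median 5.62 and the highest 7.87 (M12), and C1 and C5 lay within that range. As a difference, the log2 fold change was -0.95 (SE 0.26, adjusted *p* = 0.0114), but -0.71 without C6, the highest control (adjusted *p* = 0.0528).

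*Slc40a1*, the mRNA of ferroportin, was not called in either direction. Control livers had 29.4 RPKM (C1), 36.2 (C4), 51.5 (C5), 39.1 (C6) and 55.1 (C7), and pre-metastatic livers 25.3 to 66.6 with a median of 43.8. Fitted to the counts, the log2 fold change was 0.09 (SE 0.23, adjusted *p* = 0.8) and its sign turned among early-phase livers (-0.10, adjusted *p* = 0.748). Within the pre-metastatic group, 4 livers (M6, M7, M8 and M12) were at 25.3 to 27.8 RPKM and the other 5 at 43.8 to 66.6. The same 4 livers had the lowest summed RPKM of sinusoidal endothelial markers, at 25.9 to 58.8 against 68.2 to 120. The part of cell content in this split was not tested.

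The ferritin subunits, which form the shell that stores iron in the cell, were both lower. *Fth1*, the heavy subunit with ferroxidase activity, was at 975 RPKM in C1, 989 in C4, 1177 in C5, 768 in C6 and 769 in C7. Pre-metastatic livers lay between 595 (M7) and 731 RPKM (M4), with a median of 649, all below the lowest control. By edgeR, the log2 fold change was -0.41 (SE 0.11, adjusted *p* = 0.0132).

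*Ftl1*, the light subunit, was at 3282 RPKM in C1, 3523 in C4, 4726 in C5, 3257 in C6 and 3497 in C7. Pre-metastatic livers lay between 1606 (M6) and 2931 RPKM (M5), with a median of 2343, again without overlap. This gave a log2 fold change of -0.59 (SE 0.13, adjusted *p* = 0.0028). *Ftl1* has near-identical copies that can share its reads, and the most abundant of these in the table, *Ftl1-ps1*, was also lower (-0.85, SE 0.15, adjusted *p* = 0.000667). The RPKM of *Ftl1* over that of *Fth1* was 3.37 to 4.55 in control liver and 2.53 to 4.35 in pre-metastatic liver.

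*Hmox1*, the inducible enzyme that opens haem and frees its iron, had 10.1 RPKM in C1, 18.4 in C4, 16 in C5, 16.9 in C6 and 28.8 in C7. The pre-metastatic values of 13.7 to 25.7 RPKM (median 20.9) lay inside that range. The log2 fold change of 0.26 (SE 0.17, adjusted *p* = 0.271) was not called, but it was called among early-phase livers (0.56, adjusted *p* = 0.0235) and without C7 (0.48, adjusted *p* = 0.0313).

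**Figure D3:**
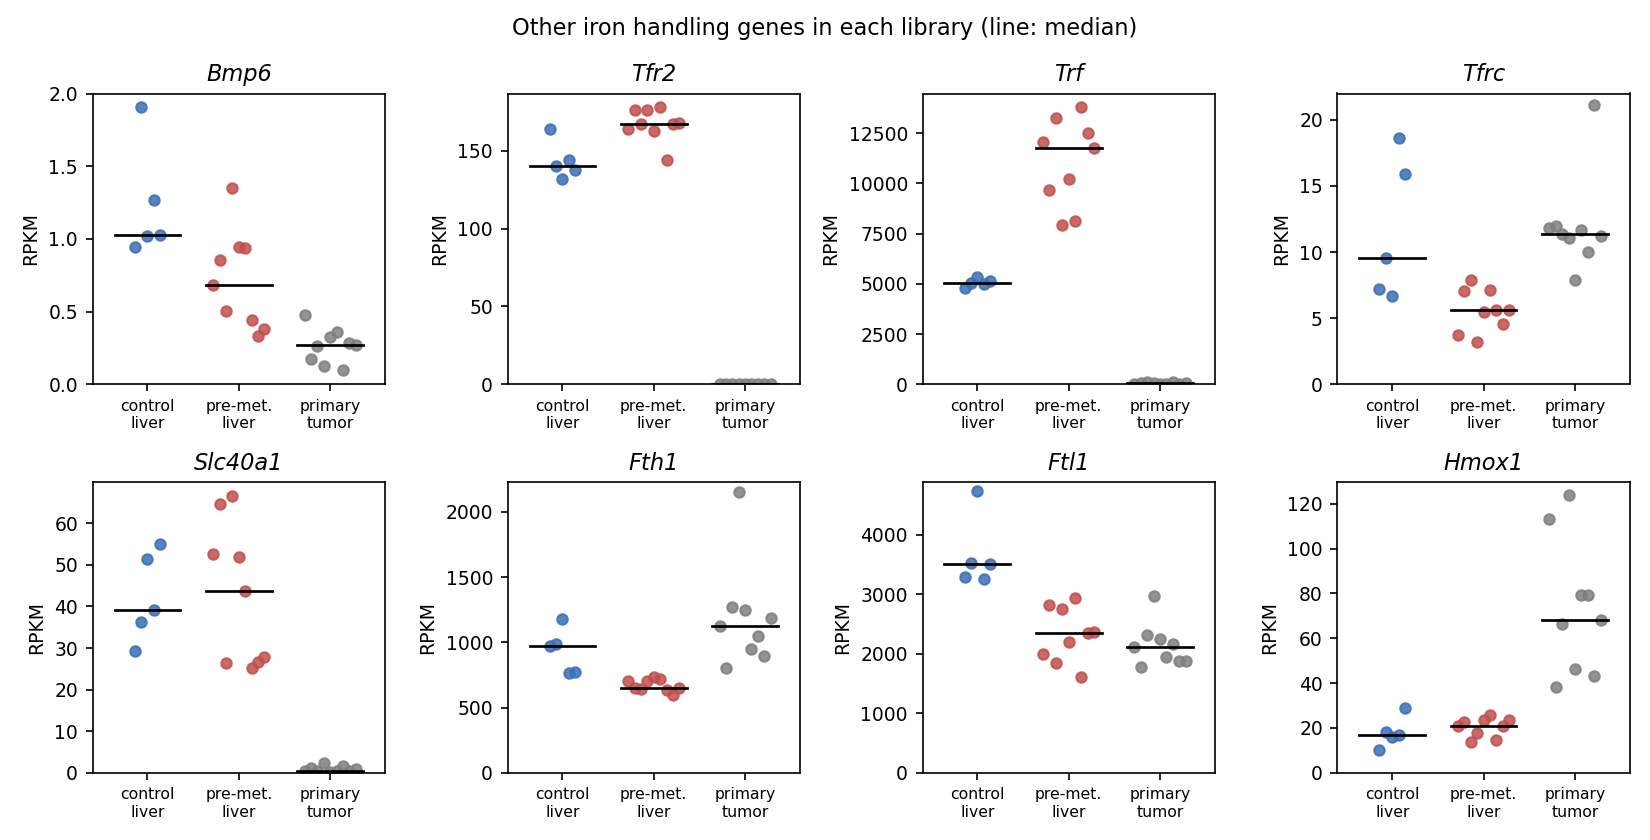
RPKM of *Bmp6*, *Tfr2*, *Trf*, *Tfrc*, *Slc40a1*, *Fth1*, *Ftl1* and *Hmox1* in each library, with 1 point per library and a line at the median of the 5 control livers, 9 pre-metastatic livers and 9 primary tumors. *Trf*, *Fth1* and *Ftl1* separate the livers without overlap, while *Tfr2*, *Trf* and *Slc40a1* are near 0 in tumors on the scale of the livers.

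Other routes of iron and haem into hepatocytes were also described. Of 9 genes of iron uptake and reduction, 6 were higher and 0 lower. *Steap4*, a ferrireductase, rose from 27.4 to 64.4 RPKM in control liver to 88 to 290 RPKM in pre-metastatic liver (1.88, SE 0.33, adjusted *p* = 0.000668). *Slc39a14*, the transporter of free plasma iron, rose by 0.76 (SE 0.22, adjusted *p* = 0.0178) and *Slc11a2* by 0.59 (SE 0.19, adjusted *p* = 0.0272). The largest log2 fold change was that of *Steap1* (2.15, SE 0.60, adjusted *p* = 0.0131), at a level of at most 1.1 RPKM in any liver.

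Scavenging of haem and hemoglobin had 5 of 11 genes higher and 3 lower. *Hpx*, hemopexin, which carries haem to the liver, rose by a log2 fold change of 1.80 (SE 0.28, adjusted *p* = 0.000325), from 2626 to 4331 RPKM to 5395 to 14230 RPKM, and haptoglobin (*Hp*), which binds hemoglobin, by 1.25 (SE 0.30, adjusted *p* = 0.00583). *Cd163*, the macrophage receptor for that complex, was not called (0.54, SE 0.28, adjusted *p* = 0.164). *Blvrb*, a biliverdin reductase, was the largest fall (-1.15, SE 0.17, adjusted *p* = 0.000248). *Hpx*, *Hp* and *Lcn2* are known as acute phase genes as well as for binding haem, hemoglobin and siderophores.

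Genes that handle iron within the cell were counted in further lists. Of 5 genes of iron oxidation, chaperoning and ferritin turnover, *Cp*, the plasma ferroxidase ceruloplasmin, was higher (0.90, SE 0.22, adjusted *p* = 0.0061) and 2 were lower, *Pcbp1*, an iron chaperone (-0.47, SE 0.10, adjusted *p* = 0.00206), and *Ncoa4*, the receptor that delivers ferritin to lysosomes (-0.55, SE 0.12, adjusted *p* = 0.00253). Of 15 genes of iron-sulfur cluster assembly and mitochondrial iron, 6 were lower and 0 higher, with *Iscu*, the assembly scaffold, at -0.46 (SE 0.09, adjusted *p* = 0.00175). Of 8 genes listed for NRF2, a stress factor known to induce ferritin and *Hmox1*, 4 were lower and 0 higher, with *Srxn1* at -1.18 (SE 0.11, adjusted *p* = 1.11e-05) and *Nqo1* at -1.15 (SE 0.19, adjusted *p* = 0.00039). That list holds *Nfe2l2*, the gene of NRF2 itself, and *Bach1* besides targets.

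The iron sensors *Aco1* (0.10, adjusted *p* = 0.594) and *Ireb2* (0.23, adjusted *p* = 0.196), which encode the iron regulatory proteins, were not called, nor was *Fbxl5* (0.07, adjusted *p* = 0.423), which targets the second of them for degradation. Of 12 haem synthesis genes, 3 were higher and 3 lower (1 and 2 with total counts). The shares among all genes tested, 17.7% higher and 13.3% lower, stand beside the count of each list. With total counts, 2377 of all 16987 genes were higher and 2796 lower. *Alas2*, the first enzyme of the pathway in red cell precursors, rose by 2.08 (SE 0.33, adjusted *p* = 0.000349), and *Slc25a38*, a mitochondrial glycine carrier, was the largest fall (-0.64, SE 0.12, adjusted *p* = 0.0012). *Alas1*, the form used by hepatocytes, was not called (-0.67, SE 0.66, adjusted *p* = 0.469). In these lists, a count of 0 in 1 direction by edgeR was also 0 at an unadjusted *p* under 0.05, except for 2 lower genes in the list of BMP ligands and receptors.

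Markers of some other cell types differed between the groups. The summed RPKM of 8 Kupffer cell and macrophage markers was 108 to 201 in control liver and 183 to 540 in pre-metastatic liver, with 7 of 8 called higher. For the red cell precursor markers the sums were 73.9 to 171 and 187 to 395, nearly all of it the globin gene *Hba-a1* (73.1 to 170 and 186 to 394 RPKM), with 3 of 4 tested markers higher, while the precursor regulator *Klf1* was not (-0.09, adjusted *p* = 0.818). Neutrophil markers were higher for 5 of 7 and dividing cell markers for 6 of 6. Markers of colon epithelium were higher for 3 of 6, among them *Krt20*, at up to 1.31 RPKM in a pre-metastatic liver. Hepatocyte markers were lower for 2 of 8 and higher for 0 (1 at an unadjusted *p* under 0.05), with sums of 46364 to 57112 in control liver and 31882 to 71194 in pre-metastatic liver. Of 8 sinusoidal endothelial markers, 1 was higher and 0 lower. The part of these cells in the iron gene differences was not tested. Relative to *Alb*, *Hamp* stood at 69.7 to 229 per 1000 RPKM of *Alb* in control liver and at 1.55 to 70.9 in pre-metastatic liver, where M5 alone, at 70.9, passed the lowest control.

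Because *Hamp* varied so widely among the 9 pre-metastatic livers, it was related to 6 genes across these livers, on log2(RPKM + 1). These were *Hamp2* and genes of the BMP and STAT3 inputs. *Hamp2* and *Bmp6* gave the strongest relations, each with a Spearman's rho of 0.78 (exact permutation *p* = 0.0172, adjusted over the 6 relations 0.0517). Pearson's r was 0.80 for *Hamp2* (exact permutation *p* = 0.00877, adjusted 0.0349) and 0.78 for *Bmp6* (exact permutation *p* = 0.0174, adjusted 0.0349). *Hamp2* held at most 9.41% of the counts of the pair in these livers. Reads of *Hamp* assigned to it would make it follow *Hamp*, and their share was not tested. Without M2 and M7, farthest from the median of each of these genes, r was 0.81 for *Hamp2* (exact permutation *p* = 0.0179) and 0.78 for *Bmp6* (exact permutation *p* = 0.0706), so the latter no longer passed at 0.05 with 7 livers. Without M7 and M12, farthest from the median of *Hamp*, a choice made after seeing the data, r was 0.76 (exact permutation *p* = 0.049) and 0.67 (exact permutation *p* = 0.103). On ranks centred within clock phase, rho was 0.87 for both (exact permutation *p* = 0.0115 and 0.0149). The livers of M6, M7, M8 and M12, lowest in *Bmp6*, were also lowest in the summed RPKM of sinusoidal endothelial markers. Their sums were 25.9 to 58.8, against 68.2 to 120 in the other pre-metastatic livers. The part of endothelial content in the relation of *Bmp6* and *Hamp* was not tested.

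For the BMP targets, rho was 0.38 for *Id1* (exact permutation *p* = 0.312, adjusted 0.375) and 0.63 for *Smad7* (exact permutation *p* = 0.076, adjusted 0.152). Pearson's r was 0.48 for *Id1* (exact permutation *p* = 0.208, adjusted 0.25) and 0.73 for *Smad7* (exact permutation *p* = 0.0142, adjusted 0.0349). Without M2 and M7, r for *Smad7* was 0.56 (exact permutation *p* = 0.195), and without M7 and M12 it was 0.27 (exact permutation *p* = 0.584), so the relation did not hold without the 2 livers farthest in *Hamp*. For the STAT3 targets, rho was -0.23 for *Socs3* (exact permutation *p* = 0.552, adjusted 0.552) and -0.42 for *Saa1* (exact permutation *p* = 0.27, adjusted 0.375), with r of -0.08 (exact permutation *p* = 0.835, adjusted 0.835) and -0.61 (exact permutation *p* = 0.0835, adjusted 0.125).

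The 7 other iron genes were related to *Hamp* in the same way, a family added after their values had been seen. RPKM is not corrected for the share of counts that a few abundant genes take up. In the livers of M1, M6, M7 and M12, the lowest in *Hamp*, the 10 most counted genes took 21.4% to 27.9% of counts. In the other pre-metastatic livers they took 15% to 19.7%. Whether these 7 relations hold with TMM factors was not tested. *Fth1* rose with *Hamp*, with a rho of 0.90 (exact permutation *p* = 0.00203, adjusted over the 7 relations 0.0142) and an r of 0.76 (exact permutation *p* = 0.0214, adjusted 0.0747). Without M4 and M5, r for *Fth1* was 0.61 (exact permutation *p* = 0.15) with rho at 0.79, and without M7 and M12 r was 0.53 (exact permutation *p* = 0.232), so neither r passed at 0.05 with 7 livers. *Trf* went against *Hamp*, with a rho of -0.78 (exact permutation *p* = 0.0172, adjusted 0.0603) and an r of -0.83 (exact permutation *p* = 0.00849, adjusted 0.0594), which was -0.88 without M2 and M5 (exact permutation *p* = 0.0117) and -0.83 without M7 and M12 (exact permutation *p* = 0.023). *Hmox1* (rho 0.70, exact permutation *p* = 0.0433, adjusted 0.101) and *Slc40a1* (rho 0.62, exact permutation *p* = 0.0857, adjusted 0.15) did not pass after adjustment. On ranks centred within clock phase, rho was 0.78 for *Slc40a1* (exact permutation *p* = 0.00972, not adjusted), 0.91 for *Fth1*, -0.81 for *Trf* and 0.74 for *Hmox1* (exact permutation *p* = 0.00833, 0.0181 and 0.0597). Without centring, rho was 0.58 for *Ftl1*, 0.35 for *Tfr2* and 0.03 for *Tfrc*. Across all genes, those most like *Hamp* in these 9 livers were *Atp5e*, *Abhd16a*, *Ndufb8*, *Stim1* and *Mzt2* (r of 0.96 to 0.98), while *Hamp2* ranked 870.

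**Figure D4:**
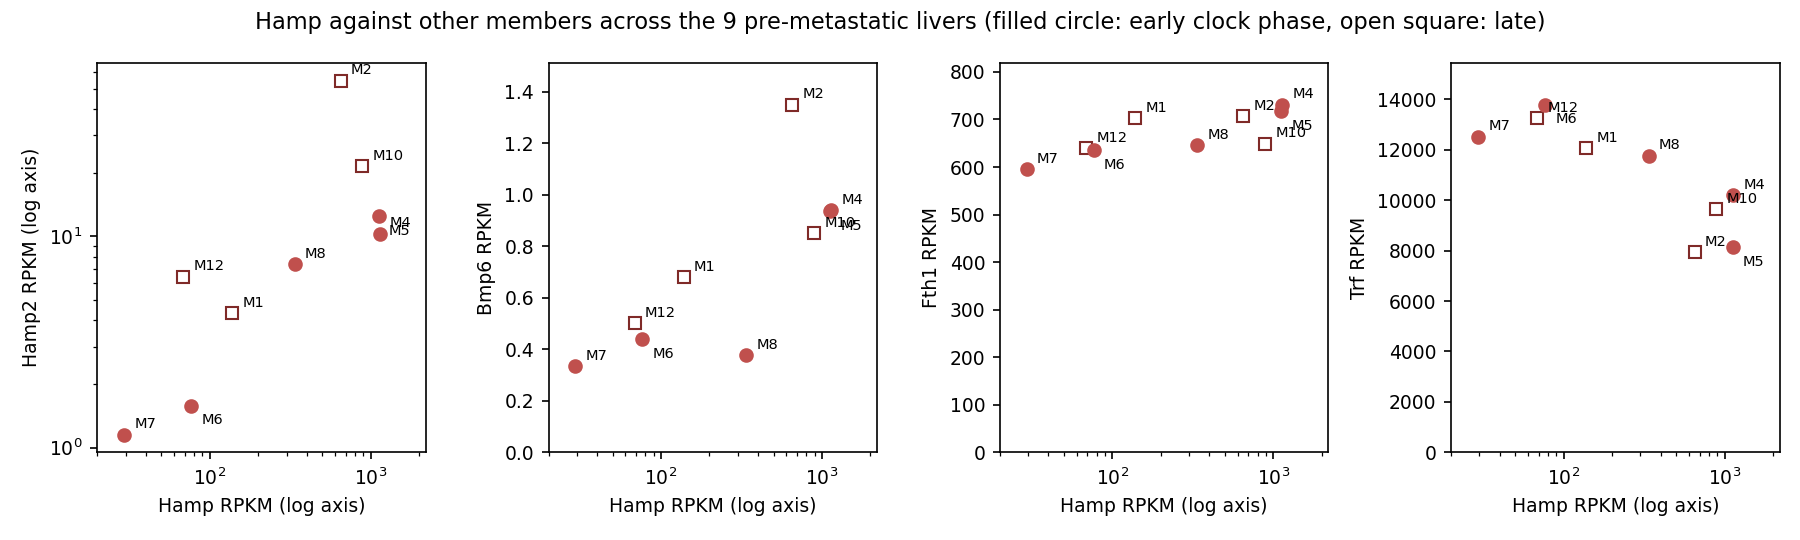
RPKM of *Hamp2*, *Bmp6*, *Fth1* and *Trf* (vertical axes, log for *Hamp2* and from 0 for the others) against the RPKM of *Hamp* (horizontal log axis) in the 9 pre-metastatic livers, each labelled by mouse, with filled circles for the early and open squares for the late clock phase. *Hamp2*, *Bmp6* and *Fth1* increase with *Hamp* and *Trf* decreases, over a *Hamp* range of 29.3 to 1135 RPKM.

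Primary tumors held almost no mRNA of the hepcidins or *Tfr2* and little of *Slc40a1* and *Trf*, while ferritin and *Tfrc* mRNA were of the same order as in liver and *Hmox1* was higher. With TMM scaling, 1 of the 10 genes was called higher (*Hmox1*) and 8 lower in tumor than in pre-metastatic liver, where 43.8% of all 19749 genes tested were higher and 39.5% lower. Against control liver, 1 was higher (*Hmox1*) and 9 were lower, where 44.2% of 19320 genes were higher and 38.1% lower. The tumor values are the same in both comparisons, which are not independent. These comparisons depend on the scale. With total counts in place of TMM scaling, which is the scale of RPKM, the median of all genes moved up by 1.18 on the log2 scale against pre-metastatic liver and by 1.08 against control liver, and the share of calls that were higher went from 52.5% to 76% and from 53.7% to 75.7%. In the comparison of the livers the same change moved that share from 57.1% to 46% and the median by -0.08.

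*Hamp* in tumors had a lowest value of 0 RPKM (M8), a median of 0.0905 and a highest of 3.71 (M10), from 0 to 104 counts. As a difference, the log2 fold change was -10.06 against pre-metastatic liver (SE 1.11, adjusted *p* = 5.62e-08) and -12.80 against control liver (SE 1.14, adjusted *p* = 2.7e-08). The 2 highest tumors, M10 and M12 at 3.58 RPKM, were those with the most *Alb*, and without them the values were -12.48 and -15.19 (-10.77 and -13.49 without M10 alone). Whether liver RNA contributed to these tumor libraries was not tested. *Hamp2* had 1 count in each of these same 2 tumors and 0 in the other 7. Its level per total counts was 1350 times higher in pre-metastatic liver (exact 95% interval 373 to 11154, for counting error only) and 6979 times higher in control liver (1931 to 57640).

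*Tfr2* and *Trf*, both made mainly by hepatocytes, were also far below every liver in every tumor. *Tfr2* was at 0 to 0.402 RPKM in tumors (median 0.0395), a log2 fold change of -11.69 against pre-metastatic liver (SE 0.84, adjusted *p* = 7.34e-11), -13.60 without M10 and M12 and -12.66 with the mouse as a replicate block. *Trf* was at 15.8 RPKM (M4) to 104 RPKM (M12), with a median of 39.2, a log2 fold change of -8.88 (SE 0.47, adjusted *p* = 7.66e-13). Relative to *Alb*, *Trf* in tumors was 600 to 24013 per 1000 RPKM, and its lowest tumor lay within the pre-metastatic range of 283 to 663.

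*Slc40a1* was at 0.133 RPKM (M4) to 2.37 RPKM (M2) in tumors, with a median of 0.51, and every tumor was below every liver. Fitted to the counts, the log2 fold change was -6.76 against pre-metastatic liver (SE 0.47, adjusted *p* = 4.99e-11) and -6.65 against control liver (SE 0.48, adjusted *p* = 2.09e-09). *Bmp6* was at 0.0994 to 0.478 RPKM (median 0.268), a log2 fold change of -2.58 against pre-metastatic liver (SE 0.32, adjusted *p* = 2.63e-07), and the tumors of M1 and M5 overlapped the lowest livers. Against control liver, the log2 fold changes were -11.39 for *Tfr2* (SE 0.87), -7.64 for *Trf* (SE 0.44) and -3.30 for *Bmp6* (SE 0.32), each called lower. With total counts, *Hamp*, *Slc40a1*, *Tfr2*, *Trf* and *Bmp6* were still called lower than in pre-metastatic liver, by -10.54 (*Tfr2*) to -1.43 (*Bmp6*).

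*Tfrc* in tumors was at 7.92 RPKM (M4) to 21.1 RPKM (M7), with a median of 11.4, and in RPKM every tumor was above every pre-metastatic liver. Its log2 fold change was -0.08 with TMM scaling (SE 0.19, adjusted *p* = 0.68) and 1.11 with total counts (adjusted *p* = 1.05e-05), so the direction and the call turn on the scale. Against control liver the same values were -1.01 (SE 0.24, adjusted *p* = 0.000939) and 0.06 (adjusted *p* = 0.837).

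*Fth1* was at 804 RPKM (M10) to 2151 RPKM (M2) in tumors, with a median of 1125, and in RPKM every tumor exceeded every pre-metastatic liver. Its log2 fold change was -0.36 with TMM scaling (SE 0.15, adjusted *p* = 0.036), and 0.83 with total counts (adjusted *p* = 3.98e-05). The first call was lost when any of 7 libraries was left out, the livers of M4 and M12 or the tumors of M1, M5, M6, M7 and M10 (adjusted *p* of 0.0516 to 0.0715), without the tumors of M10 and M12 together (adjusted *p* = 0.0597) and with no filter on low counts (-0.29, adjusted *p* = 0.121). Against control liver it was -0.75 (SE 0.21, adjusted *p* = 0.00357) and 0.34 (adjusted *p* = 0.127). *Ftl1* was at 1779 to 2965 RPKM (median 2115), within the range of pre-metastatic liver but for its highest value, with -1.29 by TMM scaling (SE 0.13, adjusted *p* = 2e-08) and -0.11 with total counts (adjusted *p* = 0.429). Against control liver it was lower on both scales, by -1.85 (SE 0.15, adjusted *p* = 5.72e-09) and -0.77 (adjusted *p* = 4.9e-05). A ratio within each library does not depend on scaling: *Ftl1* over *Fth1* was 1.38 to 2.21 in tumors, below all livers at 2.53 to 4.55.

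*Hmox1* was higher in tumors on both scales. Tumors had 38.1 RPKM (M10) to 124 RPKM (M2), with a median of 68.2, all above every liver. The log2 fold change against pre-metastatic liver was 0.67 with TMM scaling (SE 0.20, adjusted *p* = 0.00416) and 1.84 with total counts, and against control liver 0.95 (SE 0.29, adjusted *p* = 0.00664) and 2.02. Within each mouse, the tumor exceeded its own liver in RPKM for *Hmox1*, *Fth1* and *Tfrc* in 9 of 9 mice and for *Ftl1* in 5 of 9, and fell below it for *Hamp*, *Hamp2*, *Slc40a1*, *Tfr2*, *Trf* and *Bmp6* in 9 of 9.

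**Figure D5:**
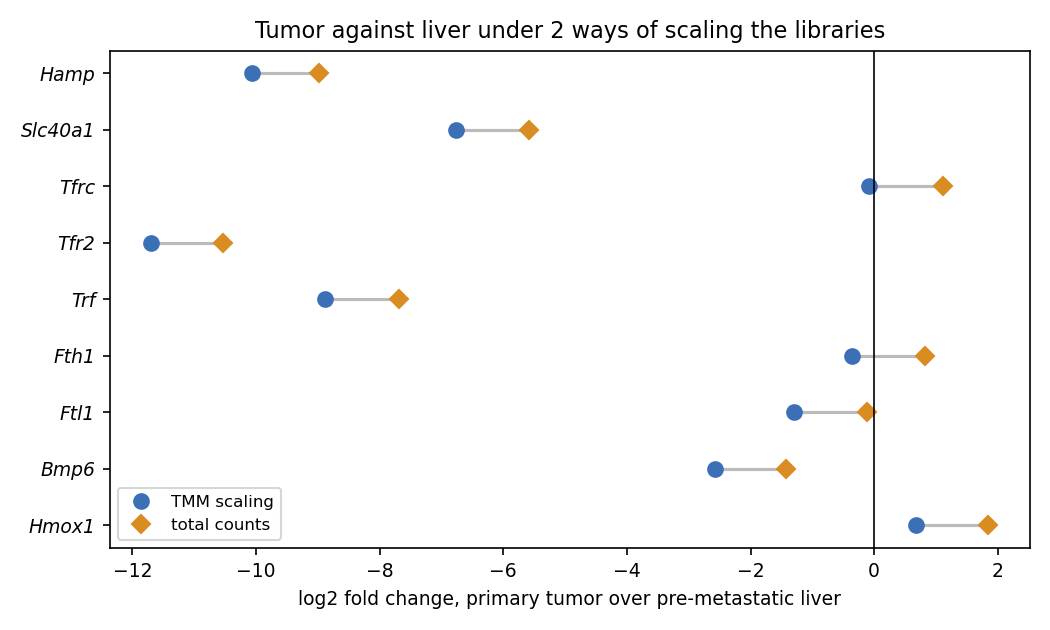
Log2 fold changes of primary tumor over pre-metastatic liver for 9 of the 10 genes with TMM scaling (circles) and with total counts (diamonds). *Hamp2*, with 2 counts over all tumors, is left out. *Tfrc* and *Fth1* lie on opposite sides of 0 under the 2 scalings, and *Hmox1* stays to the right and 6 genes to the left under both.

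Among other iron genes, *Steap1* and *Steap4* differed between tumor and pre-metastatic liver in opposite directions. *Steap1* was at 47.7 to 77.8 RPKM in tumors (log2 fold change over pre-metastatic liver 6.06, SE 0.35, adjusted *p* = 2.9e-12), and *Steap4* at 0.979 to 3.63 RPKM (-7.37, SE 0.34, adjusted *p* = 9.66e-14). Of 10 genes of iron uptake and reduction, 3 were higher and 6 lower (3 and 4 with total counts). Among all 19749 genes tested, 13352 were higher and 4206 lower with total counts. All 12 haem synthesis genes were lower with TMM scaling, and 10 were lower and 2 higher with total counts. Of the 7 BMP-SMAD targets, 2 were higher and 5 lower in tumors than in pre-metastatic liver (2 and 4 with total counts), with a median log2 fold change of -2.79 (-1.66 with total counts). *Smad9* was the largest fall (-8.52, SE 0.67, adjusted *p* = 3.15e-10). On both scales *Bmp2* (1.29, SE 0.34, adjusted *p* = 0.00163), *Id1* (1.11, SE 0.22, adjusted *p* = 9.41e-05) and *Smad7* (0.92, SE 0.17, adjusted *p* = 6.24e-05) were called higher in tumors than in pre-metastatic liver, while *Hjv* (-7.62, SE 0.86, adjusted *p* = 7.9e-08) and *Tmprss6* (-8.23, SE 0.40, adjusted *p* = 1.92e-13), made by hepatocytes, were lower.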

How the data were processed

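Poly(A) RNA of whole tissue was sequenced from NEBNext Ultra libraries. The authors deposited, for every gene and library, the raw count, without normalization, and the RPKM, the count divided by gene length and library total. The submitters' processing notes name HISAT, HISAT2, HTSeq 0.6.0 and the build mm10. The annotation is not given in the sources used here, nor whether counting used strand. All 46 columns were matched to samples by mouse and tissue in their names, and recomputing RPKM changed no value by more than 1.75e-06 of itself.

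Counts were compared with edgeR 4.0.16 in R 4.3.3 (TMM, quasi-likelihood test, two-sided) between 2 groups at a time, on genes that reached 10 counts in 5 or more libraries, with Benjamini-Hochberg adjustment. DESeq2 1.42.0 and the other settings of the closing section were alternatives. The steps were tested on simulated data. Relations across livers used exact two-sided permutation tests in scipy 1.17.1. Promoter sequences are those of RefSeq (GRCm38.p6, matched for 7 of the 10 genes) and transcripts those of GENCODE vM21. Gene lists came from general knowledge, with 158 of 159 genes matched, 4 by an older symbol. The 10 genes, the lists and the tests were chosen with earlier results of these data known. Named were all 10 genes, a set of 22 genes of the lists, and in each list the called gene with the largest log2 fold change in each direction, and the 5 genes closest to *Hamp* by Pearson's r across the pre-metastatic livers. The largest changes were taken from the comparison of the livers. *Il6*, *Fam132b*, *Fbxl5*, *Pcbp1*, *Saa1*, *Smad9*, *Ftl1-ps1*, *Nfe2l2*, *Bach1* and marker genes named beside a count were outside that rule.

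Tumor and liver samples with 1 mouse number come from the same animal, and an alternative fit paired them. Over 12748 genes, the deviations of such pairs from their group means had a mean correlation of 0.0798 (-0.0738 to 0.268), against -0.0102 for samples of different mice. The control livers share no mouse with the other groups. The floor was set at 3 counts per library, and intervals cover counting error only.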

Additional observations from a re-analysis of the deposited data

Results flagged for a closer look

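In 30 groups of values (10 genes by 3 groups), 6 held a library whose gap to its nearest neighbour was above Dixon's 95% critical value for the group's range. Chance flags about 1 in 20 groups where values are normally distributed and groups independent. Normality of these RPKM values was not tested, and the same libraries enter for every gene, so 6 of 30 cannot be set against that rate. The liver of M2 had 54.5 RPKM of *Hamp2*, next to 21.5 in the second highest pre-metastatic liver. The tumor of M7 had 21.1 RPKM of *Tfrc*, next to 12. The liver of M6 had 144 RPKM of *Tfr2*, the lowest of its group, next to 163. The tumor of M2 was the highest for both ferritin subunits, at 2151 RPKM of *Fth1* (next 1273) and 2965 RPKM of *Ftl1* (next 2314). The control liver C5 had 4726 RPKM of *Ftl1* (next 3523) and also the highest *Fth1* and *Hamp* of its group.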

How the results depend on the processing

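The calls of *Hamp*, *Hamp2*, *Trf* and *Ftl1* between the livers kept their direction and stayed under 0.05 in all 21 alternative fits, with log2 fold changes of -3.01 to -2.49, -3.10 to -2.05, 1.13 to 1.31 and -0.66 to -0.48. *Tfr2* was not called in 7 of them (adjusted *p* up to 0.734, in the fit over all libraries), *Tfrc* without C6, and *Fth1* in the fit over all libraries (-0.40, adjusted *p* = 0.0978). The number of the 10 genes called in the livers was 5 to 8 over all settings (7 as reported), with 8 by the unadjusted exact rank-sum test of RPKM, which added *Bmp6* (exact *p* = 0.012). *Slc40a1* turned to -0.10 in the early phase, -0.07 with clock phase as a term and -0.00 without M10, its range without single libraries being -0.00 to 0.19. With total counts in place of TMM scaling, an alternative chosen after seeing the data, *Tfrc* and *Fth1* turned to 1.11 and 0.83 against pre-metastatic liver and to 0.06 and 0.34 against control liver, which the median shift of all genes by 1.18 and 1.08 accounts for by construction. Without single libraries *Tfrc* in tumor against pre-metastatic liver ranged from -0.22 to 0.02. When single livers were left out, rho with *Hamp* ranged from 0.69 to 0.83 for *Hamp2* and for *Bmp6*, from 0.48 to 0.79 for *Smad7*, from -0.57 to 0.10 for *Socs3* and from -0.74 to -0.17 for *Saa1*. At 8 livers, *Hamp2* did not pass at 0.05 without M7 or M8, nor *Bmp6* without M7 (exact permutation *p* = 0.0694), while *Smad7* passed without M6 (exact permutation *p* = 0.0279) and *Saa1* without M4 (exact permutation *p* = 0.0458). *Saa1* had a rho of -0.70 on log2 CPM with TMM factors (exact permutation *p* = 0.0433). In the paired fit with the mouse as replicate block, 16329 genes were called in tumor against pre-metastatic liver (16457 without it), and the block changed no call of the 10 genes. Counts of 0 to 107 per tumor for *Hamp*, *Hamp2* and *Tfr2* limit the tumor fold changes of these genes. The cause of the other changes was not tested.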
